A study of Mus musculus with 18 samples.

Results

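The p53, Rb and D-type cyclin brakes on the cell cycle were followed through the reprogramming of mouse embryonic fibroblasts (MEFs) into induced pluripotent stem cells. The group consisted of 10 listed genes: *Trp53*, *Mdm2*, *Cdkn1a*, *Ccng1*, *Rb1*, *Cdkn2a*, *Cdkn1b*, *Ccnd1*, *Ccnd2* and *Ccnd3*. All 10 were present among the 9435 genes of the knockdown expression table and among the 9472 genes of the overexpression table. The splicing table held 264 annotated events of these genes out of 661941, and 233 of them had at least 10 reads, the coverage score VLOW or better, in all libraries.

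RNA-seq of polyadenylated RNA gave 18 libraries in 9 groups of 2. All cells were MEFs with the Collagen-OKSM and M2rtta+ alleles, in which doxycycline switches on the 4 reprogramming factors *Oct4*, *Klf4*, *Sox2* and *Myc* (OSKM). The knockdown dataset comprised non-infected (NI) MEFs at day 0 and, at day 12 of reprogramming, cells that carried a scrambled shRNA (shSCR), 2 different shRNAs against the 3' end processing endonuclease CPSF3 (shCPSF3#1 and shCPSF3#2), or 2 against the RNA-binding protein hnRNP UL1 (shUL1#1 and shUL1#2). The overexpression dataset comprised NI MEFs at day 0 and, at day 12, cells that carried an empty vector (Empty) or T7-tagged TIA1 (T7-TIA1), an RNA-binding regulator of splicing. Infected cells had been sorted by a fluorescent reporter and grown on irradiated feeder MEFs, which the NI groups lacked, so that the difference between day 12 and day 0 and the presence of virus and feeders cannot be told apart. The day in another field of the labels differed from the title for shUL1#2 and for the overexpression NI group, and the titles were used. The labels do not say that the 2 libraries of a group came from separate cultures, so p-values measure the spread between libraries only, which may be technical.

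These genes act on the same decision, whether a cell passes from G1 into S phase. p53 (*Trp53*) is a transcription factor that is kept low by the ubiquitin ligase Mdm2, itself a p53 target, and that induces the CDK inhibitor p21 (*Cdkn1a*) and cyclin G1 (*Ccng1*). The retinoblastoma protein (*Rb1*) holds back E2F transcription factors until it is phosphorylated by CDK4 and CDK6, which need a D-type cyclin (*Ccnd1*, *Ccnd2*, *Ccnd3*). p27 (*Cdkn1b*) inhibits cyclin-CDK complexes. *Cdkn2a* encodes both p16Ink4a, an inhibitor of CDK4 and CDK6, and p19Arf, an inhibitor of Mdm2, and gene-level values do not separate the transcripts of the pair. In fibroblasts this network is best known for senescence and as a barrier to reprogramming.

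The sequence on which the splicing results turn is exon 3 of *Mdm2*, event MmuEX0028331, at chr10:117709700-117709784 of mm10 on the minus strand. It is exon 3 of the 12 exons of the transcript Mdm2-201 and is 85 nt long, with 4 bases of the 5' untranslated region followed by the start codon (capitals) and 81 coding bases in all. Transcripts without the exon lack this start codon, and the first ATG in frame after the exon is codon 50, in exon 4. Shorter Mdm2 proteins that begin at a downstream ATG are known.
Mdm2 exon 3: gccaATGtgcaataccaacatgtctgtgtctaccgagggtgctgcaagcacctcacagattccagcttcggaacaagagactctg

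The promoters of the p53 target genes are shown for the p53-binding decamer, the 10-base unit of which a full site holds a pair. RefSeq promoters (GRCm38.p6, 250 bases before to 50 after the start) were available for 7 of the 10 genes, as 10 promoters, and the palindromic consensus was matched without mismatch, which covers both strands. A decamer was found in 4 of the 10 promoters, those of *Mdm2*, *Ccng1*, *Trp53* and the upstream promoter of *Cdkn1a*, against 8.36% of all 32851 promoters of the same length. The *Cdkn1a* promoter held 2 decamers separated by 12 bases, and 0.359% of all promoters held 2 or more. Decamers with a mismatch were not searched for, so these 2 need not be the pair of a full site. The decamers are in capitals in the following windows, at chr10:117710920-117710959 (minus strand), chr11:40755447-40755486 (minus strand), chr11:69580269-69580308 (plus strand) and chr17:29090891-29090952 (plus strand), in that order. A match describes these letters and is not a measured site.
Mdm2 promoter: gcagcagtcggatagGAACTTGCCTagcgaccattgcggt
Ccng1 promoter: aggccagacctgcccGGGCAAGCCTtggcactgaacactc
Trp53 promoter: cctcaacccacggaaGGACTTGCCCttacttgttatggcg
Cdkn1a promoter: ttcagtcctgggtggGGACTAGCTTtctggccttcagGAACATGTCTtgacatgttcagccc

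Expression is given as scaled CPM, the deposited CPM relative to a library size scaled for each library. Sums over the listed genes ran from 937556 to 1104164 per library, and events of the 10 genes were supported by 297358 to 646605 reads per library, a read counting for each event it informs. *Cpsf3* was at 38.6 to 77.1 scaled CPM in the CPSF3 knockdown libraries against 86.7 and 118 in shSCR (0.501 of the shSCR level, adjusted p = 0.0207), with the highest value in shCPSF3#2 replicate 2. *Hnrnpul1* was at 38.7 to 85.8 in the UL1 knockdown libraries against 156 and 185 (log2 fold change -1.52 ± 0.23, SE, adjusted p = 0.0101). *Tia1* was at 613 and 469 in T7-TIA1 against 85.6 and 77.0 in Empty (+2.71 ± 0.21), although its adjusted p was 0.222 in the overexpression table. The 7 fibroblast markers were all listed, and their summed level was 15098 and 18193 in NI, 5887 and 6295 in shSCR and 13115 to 27976 in the 8 knockdown libraries. In the overexpression dataset the sum was 16831 and 38576 in NI, 6272 and 6999 in Empty, and 5199 and 5531 in T7-TIA1. None of 9 pluripotency markers and none of 3 endothelial markers was listed in either table. Genes with low or little-varying values had been removed from the tables, so a marker that is not listed may still be expressed. Of 7 epithelial markers, *Krt8* and *Krt18* were listed, in the knockdown table, with sums of 20.4 and 16.0 in NI, 539 and 298 in shSCR and 31.7 to 221 in the knockdown libraries. Of 4 macrophage and blood markers, *Cd68* and *Lyz2* were listed, in the knockdown table, with sums of 8.74 and 7.34 in NI, 279 and 162 in shSCR and 247 to 1736 in the knockdown libraries. The part of these cell types in the results that follow was not tested, and in bulk RNA more cells of a type and more RNA per cell cannot be told apart.

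At day 12 the 2 datasets shared high *Cdkn2a* and *Rb1* relative to their own NI MEFs, while *Cdkn1b* passed against NI in the knockdown dataset and the 3 D-type cyclins in the overexpression dataset. The difference between the datasets was not tested. In shSCR against NI, *Cdkn2a*, *Rb1* and *Cdkn1b* rose and no gene of the 10 fell. In Empty against NI, *Cdkn2a*, *Rb1*, *Ccnd1*, *Ccnd2* and *Ccnd3* rose. Relative to shSCR, *Cdkn1b* fell and *Ccnd1* and *Ccnd2* rose with knockdown of CPSF3 and with knockdown of UL1, and *Ccng1* and *Cdkn2a* also rose with knockdown of CPSF3. The tests were made with limma on log2(scaled CPM + 1), fitted over all genes of a table, at an adjusted p under 0.05. A knockdown was the mean of its 2 shRNAs, so that both knockdown comparisons and the comparison with NI share the shSCR libraries. Taken alone, shCPSF3#1 passed for all the members called with knockdown of CPSF3 and shCPSF3#2 for *Cdkn1b* and *Ccnd2*, and of the members called with knockdown of UL1, shUL1#2 passed for *Cdkn1b* and *Ccnd1* and shUL1#1 for none. Same-numbered libraries deviated together among the day 12 groups of the knockdown dataset (correlations of 0.674 to 0.949). In the overexpression dataset they did so only weakly (0.171 to 0.308). With the replicate number as a block, 7 members passed with knockdown of CPSF3, 5 with knockdown of UL1 and 6 in Empty against NI. In shSCR against NI 8 passed with it, among them *Ccnd1*, *Ccnd2* and *Ccng1* as lower, but there the numbers were not taken to pair the libraries. Over all genes, 4698 and 2768 passed in the knockdown comparisons, in place of 2458 and 987.

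**Figure D1:**
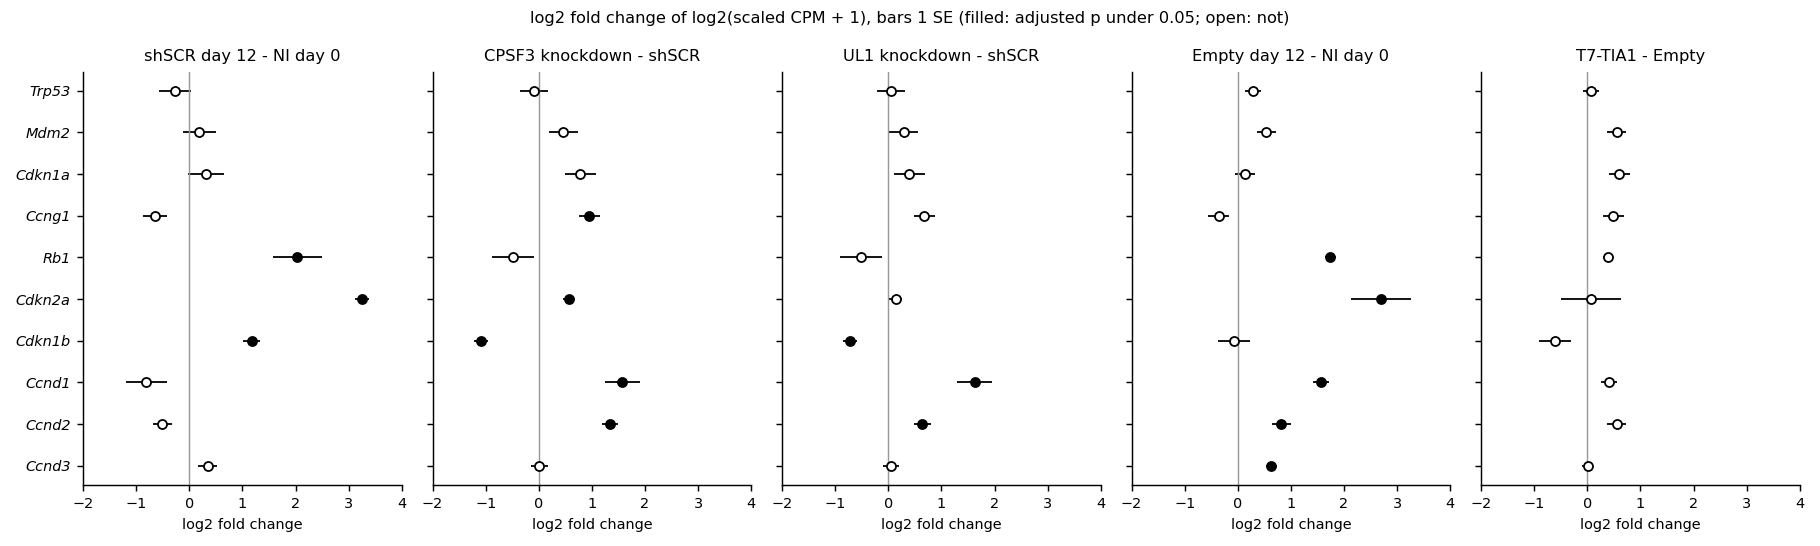
log2 fold changes (x axis) of the 10 genes in the 5 comparisons, with bars of 1 SE. Filled points passed an adjusted p under 0.05, 3, 5, 3, 5 and 0 of the 10 genes from left to right, with *Cdkn2a* in shSCR against NI the farthest from 0 at +3.25.

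These counts are read against the share of all genes called. In shSCR against NI 3 of 10 members passed, against 44.5% of all genes. With knockdown of CPSF3 5 of 10 passed, against 26.1%, and with knockdown of UL1 3 of 10, against 10.5%. For Empty against NI 5 of 10 passed, against 46.5%. For T7-TIA1 against Empty 0 of 10 passed, against 0%, and 393 of all genes and 5 members had an unadjusted p under 0.05. Even the overexpressed *Tia1* (+2.71 ± 0.21, limma adjusted p = 0.222) did not pass there, so the lack of a call says little about a member. The libraries of the groups compared did not overlap for 7, 5, 4, 7 and 8 of the 10 members in these comparisons, against 77%, 37.9%, 37.8%, 74.3% and 51.9% of all genes. Within each replicate number, all 16 member calls kept their sign, as they must where the libraries of the groups do not overlap. Of all called genes, 50.6%, 64.1%, 69.9% and 49.2% were higher in the first 4 comparisons, and scaling libraries to the same total gave 61.4% and 66.9% for the comparisons with NI, where it put the median log2 fold change of all genes at +0.13 and +0.19, from 0.00 and +0.01. Scaling by median ratios gave 53.4% and 59.7% higher for the CPSF3 and UL1 knockdowns.

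Per kilobase of exon, *Ccng1* was the most abundant of the 10 in every group. In NI MEFs of the knockdown dataset it stood at 238 ± 3.46 scaled CPM per kb (SD, n = 2), ahead of *Cdkn1a* (88.6 ± 17.1), *Ccnd2* (66.3 ± 3.36), *Mdm2* (56.8 ± 12.3), *Ccnd1* (48.4 ± 0.438) and *Trp53* (45.3 ± 1.41). The last 4 places were held by *Ccnd3* (12.1), *Cdkn1b* (10.9), *Cdkn2a* (8.64) and *Rb1* (4.02). *Mdm2* and its neighbours *Ccnd2* and *Ccnd1* differed by less than the sum of their SDs, as did *Ccnd3* and *Cdkn1b* and also *Cdkn1b* and *Cdkn2a*, whereas the other neighbours differed by more. *Cdkn2a* was in the ninth place in these NI MEFs and in the third in shSCR (89.1 per kb). In the overexpression dataset it was in the seventh place in NI (25.6 ± 21.1 per kb) and in the second in Empty (141 per kb).

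**Figure D2:**
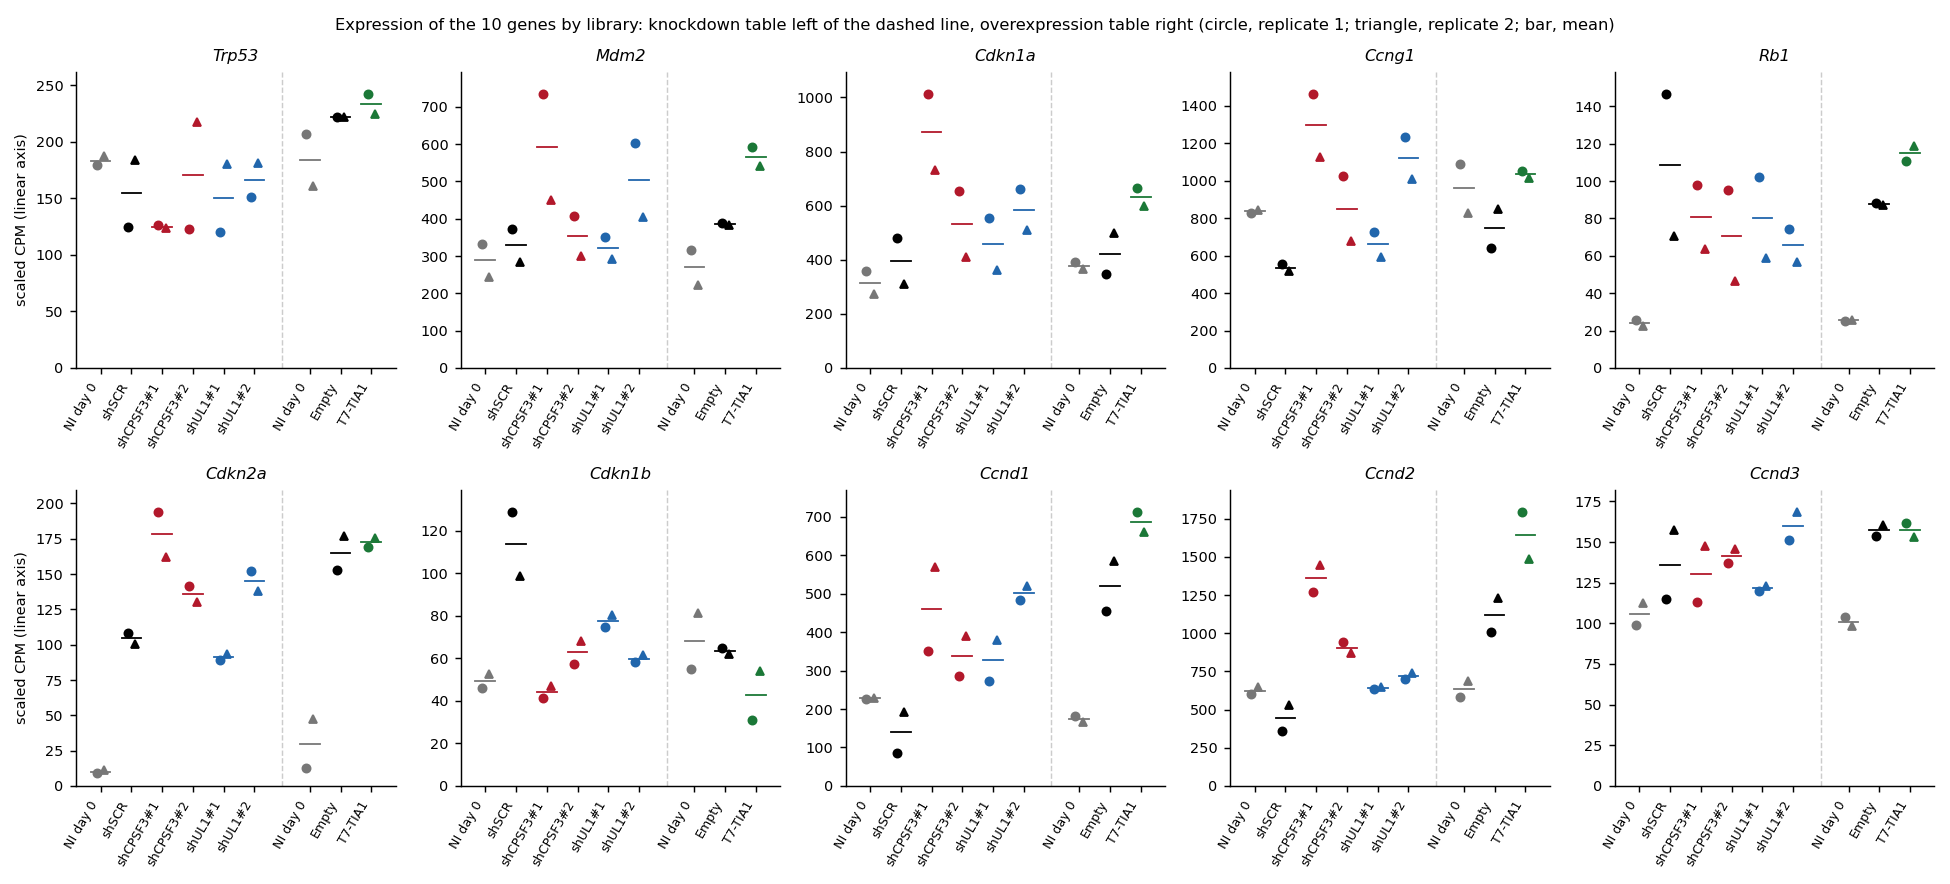
Scaled CPM (linear y axis from 0, its own range in each panel) of the 10 genes in the 18 libraries by group (x axis), with a bar at the mean of 2 libraries. *Cdkn2a* and *Rb1* were lowest in NI of both datasets, and *Cdkn1b* was highest in shSCR, at 129 and 98.6.

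*Trp53* itself passed in none of the 5 comparisons. It ranged from 120.5 to 218 scaled CPM over the 12 knockdown libraries, with 179 and 187 in NI and 125 and 184 in shSCR, and from 161 to 242 over the 6 overexpression libraries. Its largest difference among the 5 comparisons was +0.28 ± 0.14 (log2, SE), in Empty against NI, with an adjusted p of 0.16. Scaled to the same total, Empty against NI passed for *Trp53* at +0.47, and it passed without NI replicate 1 at +0.46.

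*Mdm2*, the ligase that marks p53 for degradation, was at 333 and 245 scaled CPM in NI and at 372 and 284 in shSCR, which overlapped. It reached 734 and 450 in shCPSF3#1, 408 and 301 in shCPSF3#2, 352 and 292 in shUL1#1 and 602 and 404 in shUL1#2. The replicate 1 library was the higher of the pair in all of these groups, and neither knockdown passed (CPSF3 +0.46 ± 0.27, adjusted p = 0.222, UL1 +0.29 ± 0.27, adjusted p = 0.513), although the CPSF3 difference passed with a replicate block. Among the overexpression libraries *Mdm2* was at 317 and 222 in NI, 389 and 382 in Empty and 592 and 541 in T7-TIA1. These groups did not overlap. T7-TIA1 exceeded NI (+1.09 ± 0.19, adjusted p = 0.00731), whereas Empty against NI (+0.54 ± 0.19, adjusted p = 0.0592) and T7-TIA1 against Empty (+0.55 ± 0.19, adjusted p = 0.999) did not pass. Empty against NI passed for *Mdm2* with a replicate block, when libraries were scaled to the same total (+0.72), and also without NI replicate 1 (+0.80) or without NI replicate 2 (+0.28).

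Inclusion of *Mdm2* exon 3, the exon with the start codon, was higher in shSCR than in any other group. Its percent spliced in (PSI) was 69.96 and 71.99 in NI and 90.50 and 86.15 in shSCR. It was 76.07 and 70.39 in shCPSF3#1, 72.22 and 75.57 in shCPSF3#2, 65.09 and 69.75 in shUL1#1, and 69.02 and 66.99 in shUL1#2. All 8 knockdown libraries lay below both shSCR libraries, and the UL1 libraries also lay below both NI libraries. From NI to shSCR mean PSI rose by 17.4 points, and the log2 ratio of inclusion to exclusion reads rose by 1.65 ± 0.22 (SE, adjusted p = 0.000209). Relative to shSCR the difference was -14.8 points with knockdown of CPSF3 (log2 ratio -1.46 ± 0.19, adjusted p = 0.000414) and -20.6 points with knockdown of UL1 (-1.87 ± 0.19, adjusted p = 8.17e-05). In replicates 1 and 2 taken separately the differences were +20.5 and +14.2, -16.4 and -13.2, and -23.4 and -17.8 points for these 3 comparisons. The gap between the CPSF3 and UL1 knockdowns, 5.85 points, was not tested.

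In the overexpression libraries the same exon did not show the rise. Its PSI was 74.29 and 78.57 in NI, 69.84 and 73.97 in Empty, and 56.13 and 68.73 in T7-TIA1. Empty against NI was -4.53 points (log2 ratio -0.34 ± 0.26, adjusted p = 0.597), and T7-TIA1 against Empty was -9.47 points (-0.61 ± 0.25, adjusted p = 0.747). The exon was read 1366 to 4009 times per library, and the 95% Wilson interval of a library spanned at most 4.64 points, which covers counting error only. The calls for this exon in the 3 comparisons of the knockdown dataset held under every alternative of the read test that was run, including leaving out each library.

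**Figure D3:**
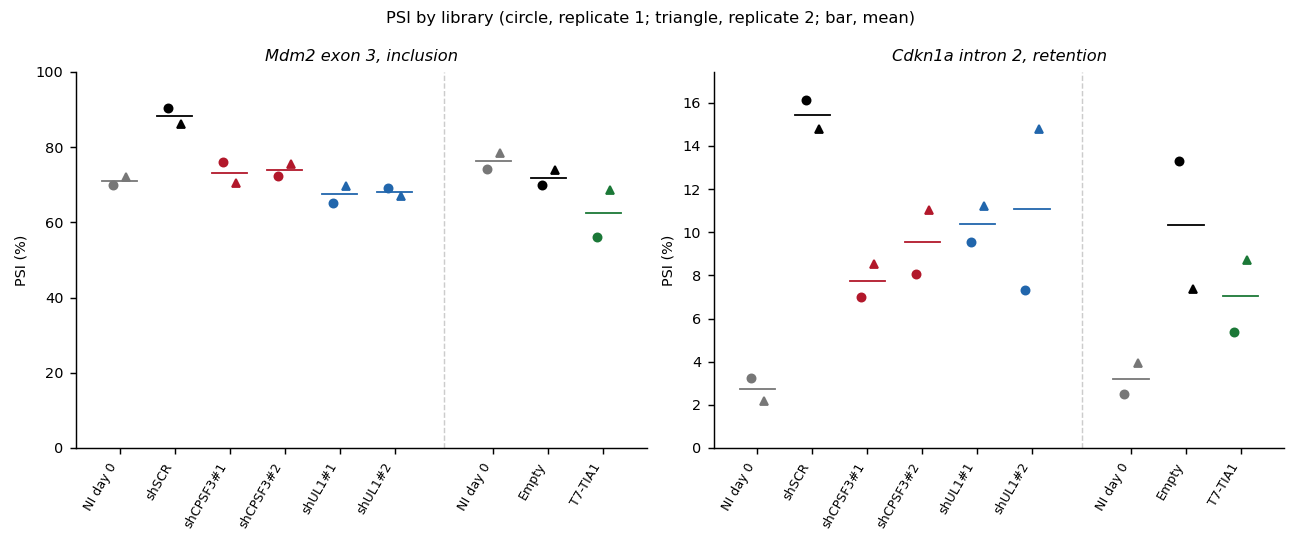
PSI in percent (y axis from 0) of *Mdm2* exon 3 and of *Cdkn1a* intron 2 in the 18 libraries by group (x axis), with a bar at the mean of 2 libraries. Both were highest in shSCR, at 90.50 and 86.15 for the exon and at 16.14 and 14.77 for the intron, a level that shUL1#2 replicate 2 also reached for the intron.

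*Cdkn1a*, which encodes p21, passed in none of the 5 comparisons with all libraries and no replicate block. With a replicate block it passed with knockdown of CPSF3 (+0.78) and of UL1 (+0.40) against shSCR. It then also passed in shSCR against NI (+0.31), where the replicate numbers were not taken to pair the libraries. It was at 358 and 272 scaled CPM in NI, 482 and 312 in shSCR, 1013 and 731 in shCPSF3#1, 653 and 410.5 in shCPSF3#2, 554 and 363 in shUL1#1 and 661 and 510.1 in shUL1#2. Replicate 1 was again the higher library in each pair. Only the shCPSF3#1 libraries lay above all the others, and shCPSF3#1 alone against shSCR passed (+1.15 ± 0.34, adjusted p = 0.0341), whereas the mean of both shRNAs did not (+0.78 ± 0.30, adjusted p = 0.0825). The difference between the 2 shRNAs against CPSF3 was +0.73 ± 0.34 (adjusted p = 0.408). The CPSF3 knockdown as a whole exceeded NI (2.14-fold, adjusted p = 0.0178), and so did T7-TIA1 (+0.74 ± 0.19, adjusted p = 0.0267), with 392 and 364 in NI, 346 and 499 in Empty and 666 and 599.6 in T7-TIA1. Leaving out each library gave +0.47 (without shSCR replicate 2) to +1.095 (without shSCR replicate 1) for CPSF3 against shSCR, of which 1 passed, +0.95 without shCPSF3#2 replicate 2. The UL1 difference was +0.083 without shSCR replicate 2 and +0.71 without shSCR replicate 1.

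*Ccng1*, the p53 target cyclin G1, was lowest in shSCR, at 553 and 517 scaled CPM against 827 and 845 in NI (-0.64 ± 0.23, adjusted p = 0.0509). It was at 1463 and 1128 in shCPSF3#1, 1022 and 680 in shCPSF3#2, 726 and 593 in shUL1#1 and 1231 and 1010 in shUL1#2, all above shSCR. It rose 1.93-fold with knockdown of CPSF3 (+0.95 ± 0.20, adjusted p = 0.0128) and was 1.60-fold higher with knockdown of UL1 without passing (+0.68 ± 0.20, adjusted p = 0.0658), where shUL1#2 alone passed (+1.06 ± 0.23, adjusted p = 0.0372) and shUL1#1 did not (+0.29 ± 0.23, adjusted p = 0.474). Of the CPSF3 shRNAs, shCPSF3#1 passed (+1.26 ± 0.23, adjusted p = 0.0067) and shCPSF3#2 did not (+0.64 ± 0.23, adjusted p = 0.144). For the overexpression dataset, it was at 1090 and 827 in NI, 641 and 848 in Empty and 1053 and 1015 in T7-TIA1, and Empty against NI passed only without NI replicate 2 (-0.56). The rise with knockdown of CPSF3 did not pass without shSCR replicate 2 (+0.90) or when only the groups compared were fitted, and the UL1 difference passed with a replicate block (+0.68) and with libraries scaled to the same total (+0.65).

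The introns of the 10 genes that passed in shSCR against NI were all higher in shSCR. Introns are given as the PSI of the intron, the percent of transcripts that keep it. Of 53 introns of the 10 genes that could be tested, 14 were higher in shSCR and 0 lower, against 5.04% of all introns higher, and 40 of 53 had a positive log2 ratio, with a median of +0.56 against +0.31 over all introns. They comprised all 5 introns of *Ccng1*, 5 of 11 of *Mdm2*, both of *Cdkn1a* and 2 of 10 of *Trp53*, and none of *Rb1*, *Cdkn2a*, *Cdkn1b* or the D-type cyclins, and 9 of the 14 calls were lost when PSI was tested without read weights. With knockdown of CPSF3 6 of the 53 introns were lower than in shSCR, against 2.17% of all introns, and with knockdown of UL1 1 was lower, against 0.723%. In Empty against NI 3 of 45 were higher, against 0.483%.

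The largest intron change in PSI points was in *Cdkn1a* intron 2, MmuINT0033898, 506 nt between coding exons at chr17:29098838-29099343. Its PSI was 3.23 and 2.19 in NI, 16.14 and 14.77 in shSCR, 6.98 and 8.52 in shCPSF3#1, 8.05 and 11.03 in shCPSF3#2, 9.54 and 11.23 in shUL1#1 and 7.34 and 14.77 in shUL1#2. It was higher in shSCR than in NI by 12.7 points (log2 ratio +2.69 ± 0.32, adjusted p = 0.000141), and differed by -6.81 points with knockdown of CPSF3 (log2 ratio -0.97 ± 0.25, adjusted p = 0.0451). With knockdown of UL1 the difference was -4.73 points (-0.65 ± 0.25, adjusted p = 0.23). In the overexpression dataset PSI was 2.48 and 3.92 in NI, 13.31 and 7.38 in Empty, and 5.36 and 8.72 in T7-TIA1, and Empty exceeded NI (+1.76 ± 0.35, adjusted p = 0.027). The interval of a single library spanned at most 2.56 points. The CPSF3 call was lost without shSCR replicate 1 (log2 ratio -0.89) or replicate 2 (-1.04), without either shCPSF3#1 library (-0.89 and -1.05) and without shCPSF3#2 replicate 1 (-0.84), and the Empty call was lost without NI replicate 1 (+1.44) or Empty replicate 1 (+1.28). A longer intron 5' of it, MmuINT0033897 at chr17:29093862-29098396, rose from 0.72 and 0.82 in NI to 4.31 and 3.84 in shSCR (+2.41 ± 0.41, adjusted p = 0.0026).

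In *Ccng1* the retained share was low in all 5 introns. Intron 3, MmuINT0031700 at chr11:40751519-40752103, was at 0.35 and 0.22 in NI, 2.55 and 2.77 in shSCR, 0.53 to 1.14 in the 4 CPSF3 knockdown libraries and 0.49 to 1.16 in the 4 UL1 knockdown libraries. It rose in shSCR by more on the log2 scale than *Cdkn1a* intron 2 (log2 ratio +3.15 ± 0.43, adjusted p = 0.000347) and fell with both knockdowns (CPSF3 -1.80 ± 0.29, adjusted p = 0.00225, UL1 -1.75 ± 0.29, adjusted p = 0.0050). Intron 1, the only one outside the coding span, was at 0 and 0.05 in NI, where 0 of 3106 reads allows up to 0.0966%, and at 0.34 and 0.30 in shSCR. Introns 1 to 4 fell with knockdown of CPSF3. For intron 3 the UL1 call was lost without shSCR replicate 1 (-1.82), while no single library changed the other calls of this intron. The CPSF3 calls of introns 1, 2 and 4 were lost without either shSCR library (-1.31 to -1.68) and without some CPSF3 libraries, and the rises of introns 2 and 4 were lost without NI replicate 2 (+2.55 and +1.98), that of intron 1 without either NI library (+2.18 and +3.52) or shSCR replicate 1 (+2.49), and that of intron 5 without any single NI or shSCR library (+1.40 to +1.91). Within exon 3, a segment of 180 nt at chr11:40752172-40752351 (MmuEX6084835), whose borders differ from the annotated exon, was included at 99.90 and 99.91% in NI, 97.89 and 98.71% in shSCR and 99.36 to 99.72% in the 8 knockdown libraries. It differed by less than 2 points but passed in shSCR against NI (-4.05 ± 0.35, adjusted p = 4.8e-06), with knockdown of CPSF3 (+2.13 ± 0.22, adjusted p = 4.7e-05) and of UL1 (+2.03 ± 0.22, adjusted p = 0.000131), and in Empty against NI (-4.36 ± 0.38, adjusted p = 6.64e-06), where it was at 99.92 and 99.96% in NI and 98.60 and 98.51% in Empty. Intron 2, MmuINT0031699, was the *Ccng1* intron called in Empty against NI (+0.92 points, log2 ratio +1.62 ± 0.31, adjusted p = 0.0126), a call lost without either NI library (+1.39 and +1.85) or Empty replicate 1 (+1.48).

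In *Mdm2* the introns that rose in shSCR were introns 4, 8, 9, 10 and 11 of Mdm2-201, of which intron 10, MmuINT1022913 at chr10:117691223-117692581, went from 3.89 and 3.56 to 9.58 and 9.87 (+1.46 ± 0.19, adjusted p = 0.000146). Intron 10 was at 7.79 to 9.47 in the 8 knockdown libraries, below both shSCR libraries and above both NI libraries. Intron 8 went from 4.33 and 4.14 to 10.05 and 9.01 (+1.24 ± 0.23, adjusted p = 0.00335) and was at 7.17 to 11.56 in the knockdown libraries. *Trp53* intron 9, MmuINT1033860 at chr11:69589863-69590655, went from 1.31 and 1.36 to 3.46 and 3.30 (+1.32 ± 0.27, adjusted p = 0.0065), and intron 1, upstream of the coding span, from 1.65 and 1.26 to 5.87 and 3.21 (+1.62 ± 0.40, adjusted p = 0.0243). The calls of *Mdm2* introns 8 and 10 held without any single library. Those of *Mdm2* introns 4, 9 and 11 were lost without any single NI or shSCR library (+0.80 to +1.84), that of *Trp53* intron 9 without either NI library (+1.30 and +1.34), and that of *Trp53* intron 1 without either NI library (+1.82 and +1.43) or shSCR replicate 1 (+1.14). No *Mdm2* or *Trp53* intron passed in the knockdown comparisons. In Empty against NI *Mdm2* and *Trp53* introns did not pass either, although all 11 *Mdm2* introns had a positive log2 ratio. With PSI tested without read weights, the shSCR calls of *Mdm2* introns 4, 8, 9 and 11, of both *Trp53* introns, of *Ccng1* introns 1 and 5 and of MmuINT0033897 were lost. So were the CPSF3 calls of *Ccng1* introns 1, 2 and 4 and of *Cdkn1a* intron 2, the 3 intron calls in Empty against NI, and the calls of the *Ccng1* exon 3 segment outside shSCR against NI.

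**Figure D4:**
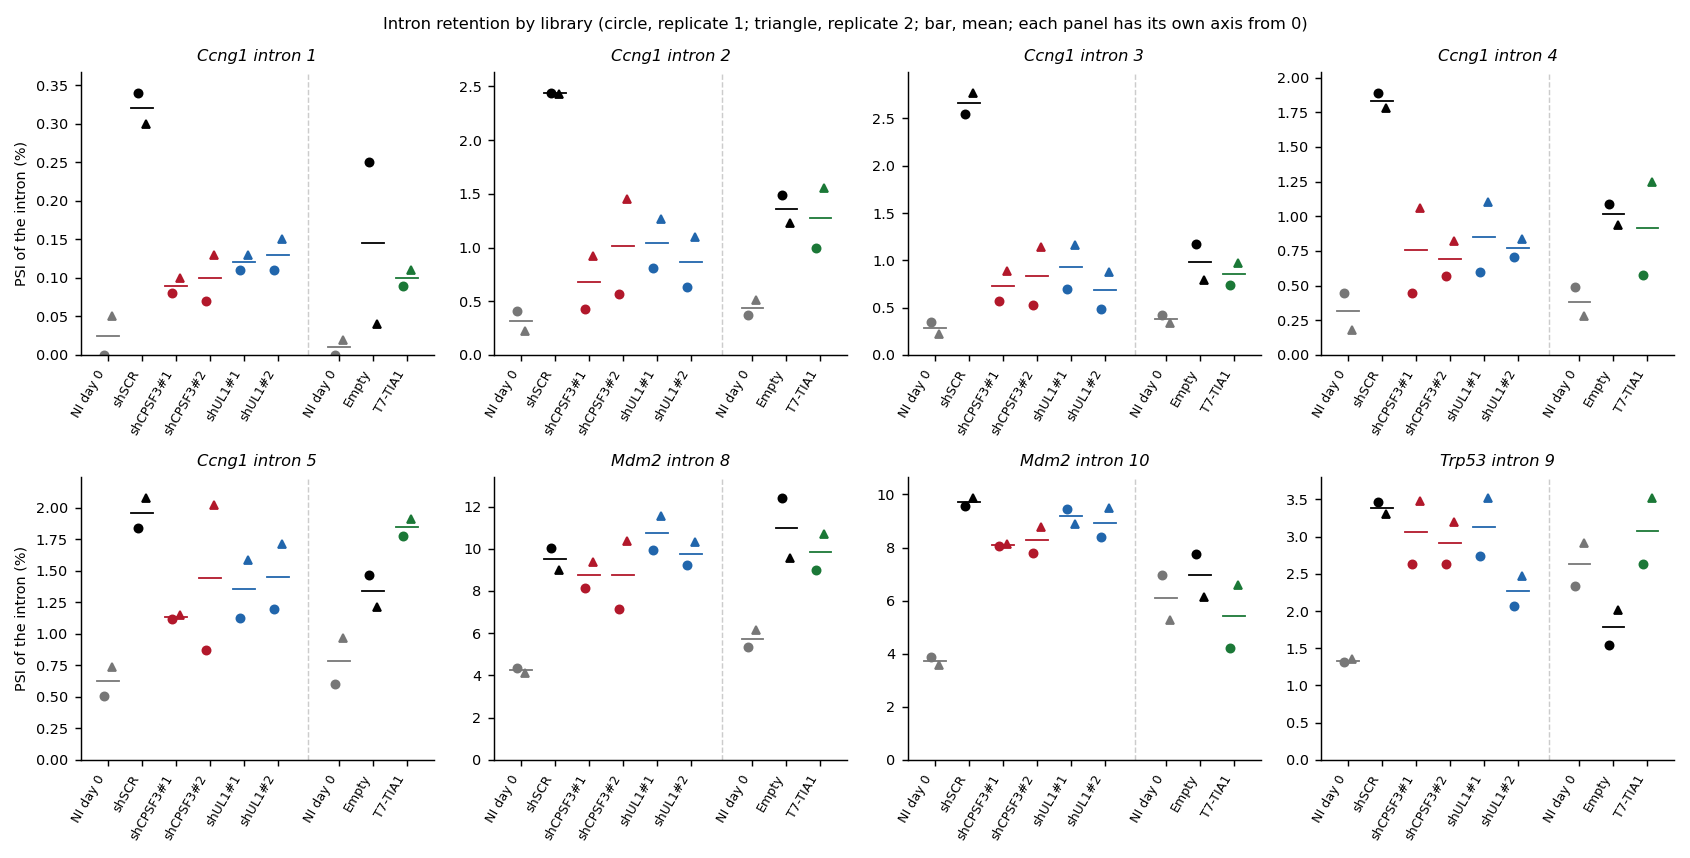
PSI in percent (y axis from 0, its own range in each panel) of 8 introns in the 18 libraries by group (x axis), with a bar at the mean of 2 libraries. In *Ccng1* introns 1 to 4 both shSCR libraries lay above all others. In *Mdm2* introns 8 and 10 the knockdown libraries, at 7.17 to 11.56 and 7.79 to 9.47, lay above the NI libraries of the same dataset.

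*Rb1* was among the lowest of the 10 genes in NI, at 25.7 and 22.6 scaled CPM, and was at 147 and 70.7 in shSCR. The 2 shSCR libraries were far apart, yet both lay above NI (4.10-fold, +2.04 ± 0.46, adjusted p = 0.0083). Among the overexpression libraries it was at 25.4 and 25.6 in NI, 88.5 and 87.1 in Empty and 111 and 119 in T7-TIA1. Empty exceeded NI 3.35-fold (+1.74 ± 0.10, adjusted p = 0.000804), and T7-TIA1 exceeded NI 4.37-fold (+2.13 ± 0.10, adjusted p = 0.000644). Knockdown of CPSF3 (46.7 to 97.9) and of UL1 (56.6 to 102) gave differences of -0.48 ± 0.40 (adjusted p = 0.375) and -0.52 ± 0.40 (adjusted p = 0.421) from shSCR, and both stayed above NI (+1.55 ± 0.40, adjusted p = 0.0146, and +1.52 ± 0.40, adjusted p = 0.0162). Without shSCR replicate 1 the rise from NI was +1.51 and did not pass, and without shSCR replicate 2 it was +2.56. An alternative 5' splice site of an *Rb1* exon, MmuALTD0011609 at chr14:73205744-73205907 (minus strand), met the splicing rule in shSCR against NI. The shorter form, without its last 85 nt, was used at 2.86 and 4.55% in NI and 14.50 and 16.56% in shSCR, a difference of 11.8 points on 35 to 242 reads per library, and the read test did not call it (adjusted p = 0.151).

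*Cdkn2a* had the largest change of the 10 genes. It was at 9.04 and 11.2 scaled CPM in NI and 108 and 100.4 in shSCR, a 9.51-fold rise (+3.25 ± 0.14, adjusted p = 1.1e-05). It was at 194 and 162 in shCPSF3#1, 142 and 130.2 in shCPSF3#2, 89.3 and 93.5 in shUL1#1 and 152 and 138 in shUL1#2. The CPSF3 knockdown exceeded shSCR (1.48-fold, +0.57 ± 0.12, adjusted p = 0.0131), but this did not pass without shSCR replicate 2 (+0.51) or when only the groups compared were fitted. The 2 UL1 shRNAs lay on either side of shSCR, and their mean did not differ by the test (+0.14 ± 0.12, adjusted p = 0.47). In the overexpression libraries the NI libraries, at 12.5 and 47.5, were far apart, and replicate 2 was the library with the high sum of fibroblast markers. Empty was at 153 and 177 (6.47-fold over NI, +2.69 ± 0.56, adjusted p = 0.013) and T7-TIA1 at 169 and 176 (against Empty +0.07 ± 0.56). The difference was +1.77 without NI replicate 1 and +3.61 without NI replicate 2. Without Empty replicate 1 (+2.80) or Empty replicate 2 (+2.59) the call was lost. None of the 2 tested introns of *Cdkn2a* passed.

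*Cdkn1b*, which encodes p27, was higher in shSCR than in all other groups of the knockdown dataset. It was at 46.1 and 52.8 scaled CPM in NI, 129 and 98.6 in shSCR, 41.2 and 47.1 in shCPSF3#1, 57.5 and 68.0 in shCPSF3#2, 74.9 and 80.2 in shUL1#1 and 58.1 and 61.4 in shUL1#2. It rose 2.26-fold from NI to shSCR (+1.18 ± 0.16, adjusted p = 0.000779). Relative to shSCR it fell to 0.47 of the level with knockdown of CPSF3 (-1.09 ± 0.14, adjusted p = 0.00247) and to 0.607 with knockdown of UL1 (-0.72 ± 0.14, adjusted p = 0.0191), and each of the 4 shRNAs lay below shSCR in both libraries. The UL1 knockdown remained above NI (+0.46 ± 0.14, adjusted p = 0.0281), and the CPSF3 knockdown did not differ from NI by the test (+0.09 ± 0.14, adjusted p = 0.615). For the overexpression dataset, *Cdkn1b* was at 55.1 and 81.2 in NI, 64.8 and 62.1 in Empty and 31.0 and 54.2 in T7-TIA1, with differences of -0.08 ± 0.30 (adjusted p = 0.852, and +0.11 when libraries were scaled to the same total) and -0.62 ± 0.30 (adjusted p = 0.999). The UL1 call was lost without shSCR replicate 1 (-0.53), without replicate 1 of shUL1#1 (-0.70) or of shUL1#2 (-0.70), and when only the groups compared were fitted.

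*Ccnd1*, the cyclin D1 gene, rose with both knockdowns and in Empty, and its difference in shSCR against NI did not pass. It was at 227 and 229.5 scaled CPM in NI and 86.9 and 193 in shSCR, which did not overlap (-0.81 ± 0.38, adjusted p = 0.119). It was at 352 and 569 in shCPSF3#1, 286 and 389.8 in shCPSF3#2, 273 and 380.2 in shUL1#1 and 483 and 521 in shUL1#2, so that all 8 knockdown libraries lay above NI and shSCR. It rose 2.97-fold with knockdown of CPSF3 (+1.57 ± 0.33, adjusted p = 0.013) and 3.09-fold with knockdown of UL1 (+1.63 ± 0.33, adjusted p = 0.0226) relative to shSCR. In the overexpression dataset it was at 181 and 167 in NI, 455 and 584 in Empty and 713 and 661 in T7-TIA1, a 2.95-fold rise in Empty (+1.56 ± 0.15, adjusted p = 0.00163) and a further +0.41 ± 0.15 in T7-TIA1 that did not pass (adjusted p = 0.999). The low value of shSCR replicate 1 weighed on the knockdown dataset, and without it the differences were +1.00 for CPSF3 and +1.06 for UL1, neither of which passed. The UL1 call was also lost without any single UL1 library (+1.51 to +1.75), both calls were lost when only the groups compared were fitted, and the difference of *Ccnd1* in shSCR against NI was -0.24 without shSCR replicate 1 and passed at -1.38 without shSCR replicate 2.

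*Ccnd2*, the cyclin D2 gene, rose in the same comparisons as *Ccnd1* and had higher scaled CPM in every group. Per kilobase of exon it was lower than *Ccnd1* in shUL1#1 (68.3 against 69.3) and in shUL1#2 (76.6 against 106.65). It was at 602 and 646 scaled CPM in NI and 363 and 527 in shSCR (-0.51 ± 0.18, adjusted p = 0.0507). It was at 1273 and 1447 in shCPSF3#1, 941 and 868 in shCPSF3#2, 638 and 648 in shUL1#1 and 699 and 742 in shUL1#2, all above shSCR. The rise was 2.53-fold with knockdown of CPSF3 (+1.34 ± 0.16, adjusted p = 0.00203) and 1.56-fold with knockdown of UL1 (+0.64 ± 0.16, adjusted p = 0.041). The difference between both knockdowns was +0.70 ± 0.13 (adjusted p = 0.155), the lowest adjusted p of the 10 genes in that comparison. Among the overexpression libraries *Ccnd2* was at 579.8 and 689 in NI, 1009 and 1234 in Empty and 1796 and 1490 in T7-TIA1. Empty exceeded NI 1.77-fold (+0.82 ± 0.18, adjusted p = 0.0149), and T7-TIA1 against Empty was +0.55 ± 0.18 (adjusted p = 0.999). The UL1 call was lost without shSCR replicate 1 (+0.37) and without any single UL1 library (+0.62 to +0.66). It was also lost with libraries scaled to the same total (+0.61) and when only the groups compared were fitted. The Empty call was lost without Empty replicate 1 (+0.96) or replicate 2 (+0.67). In shSCR against NI *Ccnd2* differed by -0.24 without shSCR replicate 1 and passed without shSCR replicate 2 (-0.78).

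*Ccnd3*, the cyclin D3 gene, was the steadiest of the cyclins. It ranged from 99.3 to 169 scaled CPM in the knockdown dataset, with 99.3 and 113 in NI and 115 and 158 in shSCR (+0.34 ± 0.18, adjusted p = 0.16). Knockdown of CPSF3 and of UL1 differed from shSCR by 0.01 ± 0.16 and 0.05 ± 0.16, the former with a sign that turned under both other scalings, and without shSCR replicate 1 shSCR against NI passed at +0.57. In the overexpression libraries it rose from 104 and 98.3 in NI to 154 and 161 in Empty (1.55-fold, +0.63 ± 0.10, adjusted p = 0.00518), and T7-TIA1 was at 162 and 153. Its alternative 3' splice site MmuALTA1026081-3/3 at chr17:47593609-47593784 was the only event of the group to meet the splicing rule in T7-TIA1 against Empty. It was used at 57.85% in both Empty libraries and at 48.72 and 30.61% in T7-TIA1, a difference of -18.2 points, on 25 to 42 reads per library with 95% Wilson intervals that spanned 28.7 to 36.5 points, so that the intervals of the Empty and T7-TIA1 libraries overlapped. It had too few reads in NI for the read test.

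Across all events of the group, few met the splicing rule of a difference of at least 10 points in mean PSI and at least 5 between any libraries. In shSCR against NI 4 of 233 covered events met it, against 1.22% of all events, namely *Mdm2* exon 3, the 2 forms of the *Rb1* splice site and *Cdkn1a* intron 2. With knockdown of CPSF3 1 of 238 met it, against 0.371%, and with knockdown of UL1 1 of 240, against 0.315%, in both cases *Mdm2* exon 3. In Empty against NI 0 of 233 met it, against 0.679%, and in T7-TIA1 against Empty 1 of 246, against 0.342%. The read test called 16 of 123 member events in shSCR against NI (against 6.05% of all events), 12 with knockdown of CPSF3 (3.26%), 5 with knockdown of UL1 (1.68%), 5 of 101 in Empty against NI (1.22%) and 0 of 101 in T7-TIA1 against Empty (0.0725%), where 12 had an unadjusted p under 0.05. With a replicate block it called 8 with knockdown of UL1 and 10 in Empty against NI. Member events that neither criterion named differed by -8.71 to +8.19 points in shSCR against NI, by up to +10.1 points in Empty against NI and by up to +9.42 points in T7-TIA1 against Empty, and 205 of 208, 206 of 208 and 215 of 220 were under 5 points. Under 5 points were also 213 of 213 with knockdown of CPSF3 and 213 of 215 with knockdown of UL1. The calls not yet described were small, and each was lost without at least 3 of the single libraries in turn. *Mdm2* exon 4 and the alternative 5' splice site MmuALTD1005413 of exon 10 differed by less than 1 point with the knockdowns, *Mdm2* exon 10 differed by -0.94 points in Empty against NI, *Ccng1* exon 4 by +0.62 points with knockdown of CPSF3, *Ccnd2* intron 2 by +3.64 points in Empty against NI, and *Ccnd2* intron 3 by -0.22 points with knockdown of CPSF3.

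The wider pathway was counted in 7 lists of other genes, to be read against the shares of all genes called, 44.5% in shSCR against NI, 46.5% in Empty against NI, 26.1% with knockdown of CPSF3 and 10.5% with knockdown of UL1. Of 30 listed p53 targets in the knockdown table, 17 rose and 2 fell in shSCR against NI (median log2 fold change +0.56, against 0.00 over all genes), led by the stress genes *Trp53inp1* (+3.08 ± 0.14), *Ddit4* (+3.04 ± 0.23) and *Gadd45a* (+2.28 ± 0.35). In Empty against NI 13 of 29 rose and 2 fell (median +0.71), led by *Pmaip1* (+2.02 ± 0.12), which encodes the apoptosis inducer Noxa, *Trp53inp1* (+2.01 ± 0.40) and *Fas* (+1.67 ± 0.27), a death receptor gene. Relative to shSCR, 7 rose and 3 fell with knockdown of CPSF3 (median +0.11) and 2 rose and 3 fell with knockdown of UL1 (median +0.04), with *Dcxr* the highest in both (+1.66 ± 0.12 and +1.18 ± 0.12) and *Ddit4* lower in both (-0.90 ± 0.20 and -0.80 ± 0.20). In T7-TIA1 against Empty none of the 29 passed (median +0.18, 24 of 29 positive, 5 with an unadjusted p under 0.05, namely *Ercc5*, *Tnfrsf10b*, *Polk*, *Plk2* and *Pmaip1*).

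Of 17 p53 regulators, 4 rose and 1 fell in shSCR against NI, and 10 rose and 1 fell in Empty against NI. *Mdm4*, the Mdm2 relative that inhibits p53, was 474 scaled CPM on average in shSCR and 117 in NI (+2.00 ± 0.13), and fell to 211 with knockdown of CPSF3 (-1.19 ± 0.11) and to 256 with knockdown of UL1 (-0.89 ± 0.11). It also rose in Empty against NI (+1.30 ± 0.30). Knockdown of CPSF3 gave 1 risen and 3 fallen of the 17, against 26.1% of all genes called. The ribosomal protein genes *Rpl5* (-0.93 ± 0.19) and *Rpl11* (-0.79 ± 0.19), whose proteins bind Mdm2, fell, *Rchy1*, a p53 ubiquitin ligase gene named here after its value was seen, rose, and the list median was -0.63. With knockdown of UL1 *Rchy1* rose (+0.31 ± 0.08) and *Mdm4* fell (median -0.36).

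Among 15 genes of the RB and E2F family, 4 rose and 6 fell in shSCR against NI, with *E2f7* (-2.04 ± 0.48), and *Rbl1*, which encodes the Rb relative p107 (-1.56 ± 0.35), the lowest. *Rbl1* and *E2f7* fell in Empty against NI too (-1.40 ± 0.18 and -1.34 ± 0.31), where 3 rose and 4 fell. With knockdown of CPSF3 2 rose, among them *Rbl2*, which encodes p130 (+0.65 ± 0.20), and 3 fell, and with knockdown of UL1 none passed by limma, 5 having an unadjusted p under 0.05 (*E2f1*, *E2f5*, *E2f6*, *Tfdp1* and *Lin52*). Of 10 CDK and cyclin partners *Cdk4*, the catalytic partner of the D-type cyclins, fell in shSCR against NI (-0.93 ± 0.25) and *Ccng2* rose (+1.71 ± 0.20). In Empty *Ccne1* rose (+1.05 ± 0.24) and *Ccne2* fell (-1.97 ± 0.32), and with knockdown of CPSF3 1 of the 10, *Mnat1*, fell (-0.60 ± 0.17). Of 3 other CDK inhibitors *Cdkn1c*, which encodes p57, rose in shSCR (+2.80 ± 0.30) and in Empty (+1.56 ± 0.37), and *Cdkn2b*, which lies beside *Cdkn2a* and encodes p15, rose in shSCR (+0.97 ± 0.21) and again with knockdown of CPSF3 (from 49.8 in shSCR to 109 scaled CPM on average), while *Cdkn2d* fell in Empty (-0.44 ± 0.11).

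Genes that degrade p27 and the D-type cyclins, 10 in the list, moved in both directions, with 2 rising and 4 falling in shSCR against NI and 4 rising and 1 falling in Empty. *Cul1*, the scaffold of the SKP2 ligase of p27, rose with both knockdowns (CPSF3 +0.57 ± 0.11, UL1 +0.54 ± 0.11). Of 20 proliferation genes, 0 rose and 4 fell in shSCR against NI (median -0.58), among them *Rrm2* (-1.90 ± 0.65), *Foxm1* (-1.71 ± 0.40) and *Rrm1* (-1.60 ± 0.16), whereas 6 rose and 4 fell in Empty against NI (median +0.27), with *Mcm7* (+1.11 ± 0.23), *Bub1* (+1.05 ± 0.20) and *Mcm2* (+1.04 ± 0.21) the highest. With knockdown of CPSF3 only *Ccnb2* passed (-1.84 ± 0.56), although all 20 lay below shSCR (median -1.11). With knockdown of UL1 none passed (median -0.51, 1 of 20 above shSCR), nor had any an unadjusted p under 0.05. In T7-TIA1 against Empty none passed in any list, and outside the p53 targets 1 gene, *Cdk6*, had an unadjusted p under 0.05.

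**Figure D5:**
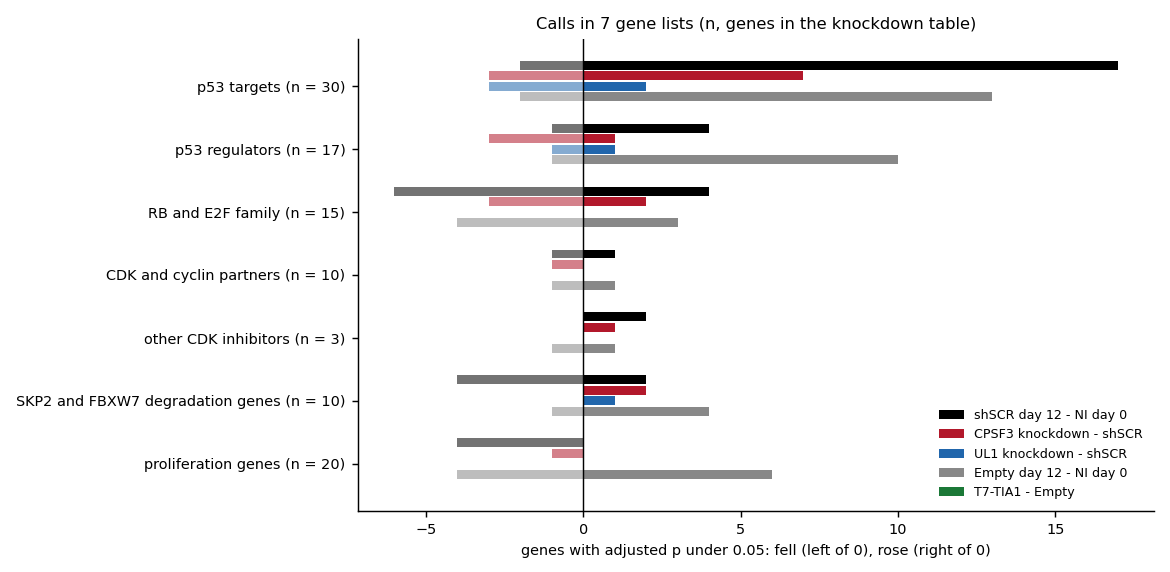
Numbers of genes with an adjusted p under 0.05 (x axis, risen to the right of 0 and fallen to the left) in 7 lists for the 5 comparisons, where n is the number in the knockdown table. The p53 targets are the longest list, with 17 risen and 2 fallen of 30 in shSCR against NI, where the RB and E2F family had 4 and 6 of 15, and 13 and 2 of 29 in Empty against NI, where the p53 regulators had 10 and 1 of 17.

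The genes whose log2 levels followed each member most closely over the 12 knockdown libraries were found by Pearson's r, as a description, since the libraries share groups and sequencing. *Cpeb2* was the nearest gene of all to both *Cdkn1a* (r = 0.986) and *Mdm2* (r = 0.938), and these 2 members also followed each other (r = 0.925). The second nearest were *Dnajb9* (r = 0.981) and *Dnajb5* (r = 0.932). *Cdkn2a* was nearest to *Ctsf* (r = 0.992) and then *Lpin1*, *Rb1* to *Vamp4* (r = 0.993) and *Stac2* (r = 0.978), and *Cdkn1b* to *Mad2l2* (r = 0.961) and *Fbxo21* (r = 0.953). *Trp53* was nearest to *Hspa4* and *Phb* (both r = 0.969), *Ccng1* to *C330007P06Rik* (r = 0.957) and *Gmfb* (r = 0.948). *Ccnd1* was nearest to *S100a16* (r = 0.977) and *Pik3r3* (r = 0.955), *Ccnd2* to *Itprid2* (r = 0.951) and then *Ak1*, and *Ccnd3* to *Glod4* (r = 0.893) and *Osbpl1a* (r = 0.882). Between members the most opposed pair was *Cdkn1b* and *Ccng1* (r = -0.836).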

How the data were processed

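Expression was deposited by the authors as a signal per gene, CPM computed with edgeR 3.16.5 from reads aligned to mm10 with STAR 2.7.1a, relative to a library size scaled for each library, after genes with low or little-varying values had been removed. Splicing was deposited by the authors as percent spliced in (PSI, in percent) per event from vast-tools with the Mm218 annotation, with inclusion and exclusion reads and a coverage score. The 10 genes and the 7 lists were chosen with earlier results of these data known. The genes named outside the 10 were the 3 largest calls of a list or the 2 nearest genes of a member, and named events were those that met the splicing rule or the read test. Genes named for an unadjusted p alone were chosen after their values were seen. The files hold no whole-read counts for genes, so depth per gene is unknown.

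Groups followed the titles in the labels. limma 3.58.1 (R 4.3.3, with trend) was fitted to log2(scaled CPM + 1) over all groups of a dataset, with two-sided tests and Benjamini-Hochberg adjustment over all genes. In the splicing rule, events with at least 10 reads needed a difference in mean PSI of at least 10 and a gap of at least 5 between the libraries of the groups, in one direction for both shRNAs. The read test was limma, robust, on log2((inclusion reads + 1)/(exclusion reads + 1)), weighted by 1/(counting variance + 0.05). It covered events with at least 10 reads in all libraries of a dataset and at least 10 inclusion and 10 exclusion reads summed over libraries, a filter chosen after the files were seen. Wilson intervals (95%) and the limit from a count of 0 (3 counts) cover counting error only. Tables were handled with pandas 2.3.3 and NumPy 2.4.6 under Python 3.11.15, figures were drawn with matplotlib 3.10.9, and the tests were tested on simulated data. Gene and exon coordinates are from GENCODE vM21 (GRCm38, the build of mm10). Alternatives were other scalings, constants and filters, other thresholds, PSI without weights, a replicate block, the compared groups alone, and leaving out each library. The labels do not say what a replicate number marks. Expression deviations of same-numbered libraries from their group means correlated at 0.674 to 0.949 between the 5 day 12 groups of the knockdown dataset (10 pairs) and at 0.171 to 0.308 in the overexpression dataset (3 pairs), where the numbers were taken to pair the libraries, and at -0.127 to 0.0218 between NI and the day 12 groups of the knockdown dataset (5 pairs), where they were not. Deviations in PSI correlated at 0.1 to 0.253, 0.0225 to 0.119 and -0.0234 to 0.0111 over the same pairs. The expression tables were scaled separately, and no test was made across them.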

Additional observations from a re-analysis of the deposited data

Results flagged for a closer look

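Differences had opposite signs, with no overlap between the libraries of the groups, in the 2 comparisons of a day 12 control with NI. *Ccnd1* differed by -0.81 (log2) in shSCR against NI and by +1.56 in Empty against NI, and *Ccnd2* by -0.51 and +0.82. The shSCR differences of these genes did not pass, and both were -0.24 without shSCR replicate 1. PSI of *Mdm2* exon 3 differed by 17.4 points in shSCR against NI and by -4.53 points in Empty against NI, and PSI of *Trp53* intron 9 (MmuINT1033860) by 2.05 and -0.85 points, of which the differences in Empty against NI did not pass. The difference between the datasets was not tested, since the expression tables were scaled separately, and vector, shRNA and dataset cannot be told apart. The summed fibroblast markers were lower than NI in both controls (5887 and 6295 in shSCR, 6272 and 6999 in Empty).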

How the results depend on the processing

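Calls rest on 2 libraries per group. The planned count tests, edgeR and DESeq2, were not run, because whole reads could not be recovered from the deposited values.

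With a replicate block, expression calls among the 10 genes went from 3 to 8 in shSCR against NI, from 5 to 7 for CPSF3, from 3 to 5 for UL1, from 5 to 6 in Empty against NI and from 0 to 0 for T7-TIA1, and read test calls went from 16 to 22, 12 to 16, 5 to 8, 5 to 10 and 0 to 0. Over all genes the block gave 5608, 4698, 2768, 4392 and 0 calls. The member calls it added were *Cdkn1a*, *Ccnd1*, *Ccnd2*, *Ccnd3* and *Ccng1* in shSCR against NI, where the numbers do not pair the NI libraries, *Cdkn1a* and *Mdm2* for CPSF3, *Cdkn1a* and *Ccng1* for UL1 and *Mdm2* in Empty against NI, and it changed no other member expression call.

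Fitting only the groups compared left 2 member calls for CPSF3 and 0 for UL1, with 344 and 145 calls over all genes, and gave 2 over all genes for T7-TIA1. A minimum PSI difference of 15 left 1 event in shSCR against NI and 0 for CPSF3. One of 20 left 0 for these and 0 for T7-TIA1, and no minimum gap gave 1 in Empty against NI. PSI without weights left 7, 2, 2 and 0 read test calls in shSCR against NI, CPSF3, UL1 and Empty against NI. The sign of *Ccnd3* turned with libraries scaled to the same total (CPSF3 -0.087, T7-TIA1 -0.00038) and by median ratios (-0.025 and -0.0038), and *Cdkn1b* in Empty against NI turned to +0.11 at the same total.

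Leaving out each library gave 3 to 5, 3 to 6, 0 to 3, 3 to 7 and 0 to 0 expression calls in the 5 comparisons, 4 to 7, 1 to 1, 1 to 1, 1 to 4 and 2 to 3 events by the rule, and 7 to 13, 4 to 11, 3 to 7, 1 to 9 and 0 to 0 by the read test. Over all genes it gave 2613 to 3387, 591 to 3225, 158 to 728, 1473 to 5978 and 0 to 0 calls. Signs that turned were those of *Cdkn1a* (-0.00010 to 0.62), *Mdm2* (-0.032 to 0.41) and *Trp53* (-0.55 to 0.0069) in shSCR against NI; *Trp53* (-0.36 to 0.19), *Ccnd3* (-0.22 to 0.23) and *Rb1* (-1.01 to 0.037) for CPSF3; *Trp53* (-0.24 to 0.32), *Ccnd3* (-0.18 to 0.28) and *Rb1* (-1.04 to 0.0051) for UL1; *Cdkn1a* (-0.13 to 0.40) and *Cdkn1b* (-0.35 to 0.20) in Empty against NI; and *Cdkn2a* (-0.039 to 0.17) and *Ccnd3* (-0.034 to 0.042) for T7-TIA1. None of these was a call. *Mdm2* exon 3 kept its 3 read test calls under the 8, 10 and 10 alternatives of that test. The cause of these changes was not tested.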
